A study of Mus musculus with 18 samples.

Results

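Angiotensin II, endothelin-1 and noradrenaline are the neurohormones that act on heart muscle through receptors coupled to the G protein Gq. Angiotensin II is cut from the precursor angiotensinogen (Agt), the last step being made by angiotensin-converting enzyme (Ace), and acts on the type 1 receptor (Agtr1a). Endothelin-1 (Edn1) is released from its precursor by endothelin-converting enzyme (Ece1) and acts on the A and B receptors (Ednra, Ednrb). Noradrenaline and adrenaline act on the α1-adrenergic receptors (Adra1a, Adra1b). In cardiac myocytes all of these receptors can activate phospholipase C through Gq, and the pathway is known for driving hypertrophic growth. These 9 genes were chosen by name as the Gq-coupled neurohormone receptors and their ligands and enzymes, out of 55450 genes in the count table. The rule named the genes and set no condition on their values.

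RNA of the left ventricle was measured in 18 mice of the strain FVB/N. All were male according to the study's methods. WT littermates and mice with cardiac-specific overexpression of Gαq, the α subunit of Gq encoded by Gnaq, received a control diet (CD) or the same period of chow with ertugliflozin (ERTU) at 0.5 mg/g, an inhibitor of the glucose transporter SGLT2. Feeding began at 4 weeks of age and lasted 16 weeks, so that hearts were taken at 20 weeks. There were 4 mice in WT CD, 5 in WT ERTU, 5 in Gαq CD and 4 in Gαq ERTU. The labels describe the transgene only as cardiac-specific, and its reads were not separated from those of the endogenous gene. A library is named here by its group and its number in the count table. Every p-value measures the spread between these libraries.

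Total counts ran from 15383566 to 20908363 per library. Gnaq ranged from 45.5 to 230 CPM (counts scaled to the library total, with TMM factors) over the 9 WT libraries and from 1641 to 11672 CPM over the 9 Gαq libraries, so that no library went against its label. Its mean was 7473 ± 3818 CPM in Gαq CD (SD, n = 5) and 3216 ± 1371 CPM in Gαq ERTU (SD, n = 4), with overlapping ranges. The log2 fold change for ERTU in Gαq was -1.22 ± 0.518 (SE, adjusted p = 0.653, edgeR). The bearing of this level on the differences on each diet was not tested. Summed cardiomyocyte markers were at 68459 CPM or more in every library, whereas 6 atrial markers summed to between 30.1 and 969 CPM. The median atrial sum was 80.0 CPM in WT CD, 50.9 in WT ERTU, 71.6 in Gαq CD and 252 in Gαq ERTU. In 4 libraries the atrial marker Myl7 exceeded 50 CPM, namely WT CD library 5, WT ERTU library 14, Gαq CD library 8 and Gαq ERTU library 20, 1 in each group. Results that changed without these 4 libraries are given with that value.

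All 9 genes passed the filter on low counts, with 16270 genes tested. Adra1a, Adra1b and Ednra were lower in Gαq than in WT, by 2.67-fold, 1.63-fold and 1.58-fold. Agt, Ace, Agtr1a, Edn1, Ece1 and Ednrb did not pass the threshold of an adjusted p of 0.05 (edgeR quasi-likelihood test with Benjamini-Hochberg adjustment over all genes tested). Thus 3 of 9 genes were called lower with genotype and 0 were called higher, where 9.92% of all genes tested were called lower and 9.72% higher. No call was made among the 9 genes for ERTU. In whole ventricle, fewer cells of a type and less RNA per cell cannot be told apart.

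The promoters of the receptor genes whose levels differed, of Ednrb beside Ednra, and of the ligand genes Edn1 and Edn3 are shown so that the paired family members can be compared. The sequences are from RefSeq on build GRCm38.p6, each running from 250 bases before to 50 bases after an annotated start, 5′ to 3′ on the strand of the gene. Of the 9 genes, 7 had an entry. Agtr1a and Adra1a had none. Capitals mark matches on either strand to 7 short motifs, the TATA box (TATAAA), the GC box (GGGCGG), the GATA motif (AGATAA), the AP-1 motif (TGANTCA), the M-CAT motif (CATTCC), the E-box (CACGTG) and the core of the NFAT motif (GGAAAA).
Ednra, chr8:77724403-77724702, minus strand: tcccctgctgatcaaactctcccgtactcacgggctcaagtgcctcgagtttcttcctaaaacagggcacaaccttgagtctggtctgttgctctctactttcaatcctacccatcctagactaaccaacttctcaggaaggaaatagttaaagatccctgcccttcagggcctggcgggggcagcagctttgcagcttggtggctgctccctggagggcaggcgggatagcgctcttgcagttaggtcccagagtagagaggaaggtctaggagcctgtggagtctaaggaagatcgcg
Ednrb, chr14:103843652-103843951, minus strand: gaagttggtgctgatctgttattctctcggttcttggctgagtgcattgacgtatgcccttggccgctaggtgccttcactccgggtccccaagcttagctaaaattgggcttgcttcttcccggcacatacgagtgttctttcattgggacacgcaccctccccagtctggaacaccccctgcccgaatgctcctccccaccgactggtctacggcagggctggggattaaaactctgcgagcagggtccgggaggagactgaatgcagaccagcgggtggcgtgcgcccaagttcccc
Adra1b, first start, chr11:43901188-43901487, minus strand: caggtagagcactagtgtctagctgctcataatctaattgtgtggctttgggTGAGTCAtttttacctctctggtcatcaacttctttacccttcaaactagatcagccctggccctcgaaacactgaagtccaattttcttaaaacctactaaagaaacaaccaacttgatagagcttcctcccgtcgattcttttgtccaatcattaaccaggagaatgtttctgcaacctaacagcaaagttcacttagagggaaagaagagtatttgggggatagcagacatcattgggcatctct
Adra1b, second start, chr11:43836440-43836739, minus strand: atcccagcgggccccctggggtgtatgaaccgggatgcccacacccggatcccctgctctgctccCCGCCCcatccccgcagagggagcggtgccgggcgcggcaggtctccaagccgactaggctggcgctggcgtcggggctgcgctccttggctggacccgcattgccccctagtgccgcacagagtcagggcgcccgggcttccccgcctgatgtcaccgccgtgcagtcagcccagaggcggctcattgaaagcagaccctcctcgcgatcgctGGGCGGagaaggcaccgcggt
Edn1, chr13:42301226-42301525, plus strand: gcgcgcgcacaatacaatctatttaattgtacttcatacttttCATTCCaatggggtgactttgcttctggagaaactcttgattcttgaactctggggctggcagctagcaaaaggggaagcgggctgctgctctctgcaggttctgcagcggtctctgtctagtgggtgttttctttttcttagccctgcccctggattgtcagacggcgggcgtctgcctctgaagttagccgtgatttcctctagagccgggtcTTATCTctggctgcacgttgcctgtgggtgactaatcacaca
Edn3, chr2:174760369-174760668, plus strand: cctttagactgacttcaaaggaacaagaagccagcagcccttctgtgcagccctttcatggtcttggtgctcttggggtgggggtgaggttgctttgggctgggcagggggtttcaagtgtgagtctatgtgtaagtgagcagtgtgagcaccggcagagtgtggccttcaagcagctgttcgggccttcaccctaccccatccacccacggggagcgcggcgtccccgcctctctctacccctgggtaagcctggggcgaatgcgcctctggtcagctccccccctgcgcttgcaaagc

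The windows of Ednra, Ednrb and Edn3 held none of the 7 motifs. The first Adra1b window held 1 AP-1 motif, found in 7.81% of 32851 mouse promoters of this length, and the second held 2 GC boxes, found in 35.7%. The 2 Adra1b windows also differed in base composition, with 42.3% and 71.3% G or C. The Edn1 window held 1 M-CAT motif (14.7% of promoters) and 1 GATA motif (11.2% of promoters) that begins 9 bases into the transcript. Among windows not printed, that of Agt held a TATA box beginning 30 bases before the start (13.6% of promoters), and the first of 2 Ace windows held 4 GC boxes and a TATA box on the opposite strand. Of 4 Ece1 windows, 3 held a GC box (35.7% of promoters) and the other an E-box (7.15% of promoters). The first and second Ece1 windows overlap and hold the same GC boxes. The NFAT core, present in 23.4% of promoters, was in none of the windows of these genes. A match is a description of letters and says nothing of binding.

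To set genes side by side, CPM was divided by the summed exon length of each gene (RPKM). The converting enzymes stood at the top of the order in all 4 groups. Ece1 had a mean level of 35.0 ± 11.7 RPKM (SD, n = 4) in WT CD and Ace 27.8 ± 10.3 RPKM, with overlapping ranges. The receptors Adra1b, Ednra and Agtr1a followed at 11.2 ± 1.231, 10.4 ± 1.54 and 10.4 ± 1.91 RPKM, and these neighbours overlapped too. Below them came Ednrb (8.08 ± 0.497 RPKM), Adra1a (5.38 ± 1.31 RPKM), Edn1 (2.56 ± 0.697 RPKM) and Agt (1.13 ± 0.488 RPKM), each apart from its neighbour in range in WT CD. In WT ERTU the same genes from Ednra down to Agt each overlapped the next.

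The order of the receptors differed in Gαq. In Gαq CD the mean level was 9.34 ± 2.68 RPKM for Agtr1a, 8.38 ± 0.793 RPKM for Ednrb, 7.01 ± 1.33 RPKM for Ednra and 6.44 ± 2.03 RPKM for Adra1b (SD, n = 5), and each of these overlapped the next. Adra1a, at 1.78 ± 0.511 RPKM, ranked below Edn1 at 3.35 ± 0.635 RPKM, with overlapping ranges. In Gαq ERTU the order was the same except that Adra1b, at 8.10 ± 1.26 RPKM, ranked just above Ednra, at 7.80 ± 0.881 RPKM (SD, n = 4), again with overlap. There Adra1a and Edn1 did not overlap. The ranks between Ace and Agt depended on the length used. With the longest transcript in place of the summed exons, Ece1, Ace and Agt kept ranks 1, 2 and 9 in all 4 groups, but in WT CD Ednra ranked 3, Agtr1a 4, Adra1b 5, Adra1a 6 and Ednrb 7. Adra1a then stood above Ednrb in both WT groups, at 10.96 ± 2.68 against 8.39 ± 0.517 RPKM in WT CD (SD, n = 4). In both Gαq groups Adra1a then stood above Edn1 and Ednra above Ednrb, at 3.63 ± 1.04 against 3.35 ± 0.635 RPKM and at 10.6 ± 2.01 against 8.70 ± 0.823 RPKM in Gαq CD (SD, n = 5).

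**Figure D1:**
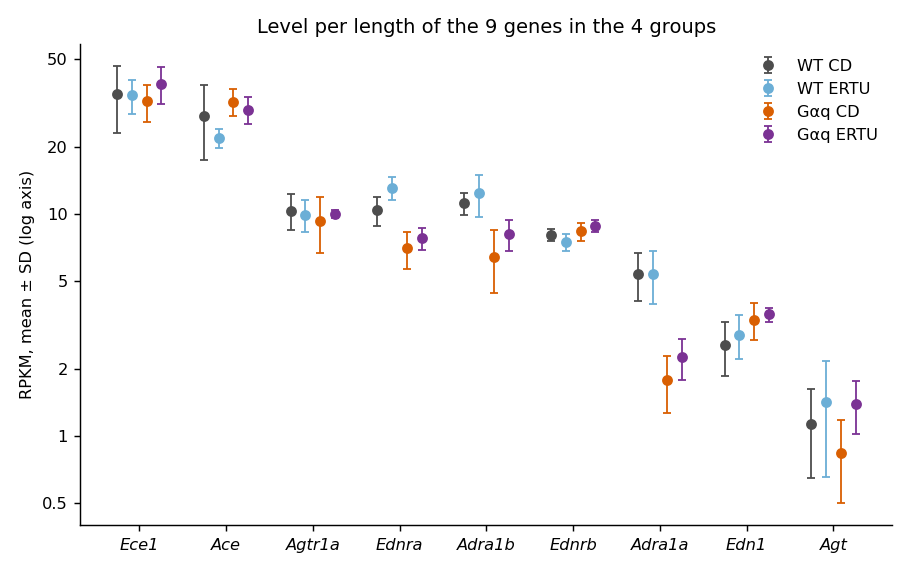
Level per length (RPKM, log axis) of the 9 genes in the 4 groups; points are group means and bars the SD over 4 or 5 libraries. Ece1 and Ace stand highest and Agt lowest, and the Gαq groups lie below the WT groups for Ednra, Adra1b and Adra1a.

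Adra1a encodes the α1A-adrenergic receptor, which in the heart is found mainly on myocytes (ENSMUSG00000045875, GRCm38 chromosome 14, 66635251 to 66771168, plus strand). In WT CD its level was 49.6, 53.6, 30.0 and 54.6 CPM in libraries 1, 2, 4 and 5. In WT ERTU it was 55.6, 63.1, 41.6, 31.6 and 42.9 CPM in libraries 11 to 15. Every WT library stood above every Gαq library. In Gαq CD the values were 22.1, 11.8, 11.3, 15.02 and 17.5 CPM in libraries 6 to 10. In Gαq ERTU they were 13.8, 22.2, 20.2 and 23.1 CPM in libraries 16, 17, 18 and 20. The highest Gαq library thus reached 23.1 CPM and the lowest WT library 30.0 CPM. The log2 fold change for genotype was -1.42 ± 0.161 (SE, adjusted p = 2.25e-06, edgeR), with -1.60 ± 0.226 on CD (adjusted p = 0.000131) and -1.24 ± 0.23 on ERTU (adjusted p = 0.00171).

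Adra1b encodes the α1B-adrenergic receptor, the other main α1 subtype of the mouse myocyte (ENSMUSG00000050541, chromosome 11, 43774606 to 43901210, minus strand). It was at 36.6, 43.6, 33.8 and 37.4 CPM in WT CD and at 37.5, 54.7, 48.1, 36.6 and 33.0 CPM in WT ERTU. In Gαq CD it was at 28.5, 17.1, 12.3, 23.7 and 27.3 CPM, all below WT CD. In Gαq ERTU it was at 33.6, 24.6, 24.5 and 27.0 CPM, where library 16 lay just above the lowest WT ERTU library. Adra1b fell with genotype by 0.71 ± 0.138 on the log2 scale (adjusted p = 0.000821, edgeR) and on CD by 0.80 ± 0.197 (adjusted p = 0.0145). On ERTU the log2 fold change of -0.62 ± 0.199 did not pass (adjusted p = 0.0615). Whether Adra1b passed on ERTU depended on the setting. The Wald test of DESeq2 gave an adjusted p of 0.031, and limma voom with sample quality weights 0.00303. Over 18 edgeR fits without 1 library each, the adjusted p ran from 0.0208 to 0.166. The 2 of these that passed were without Gαq CD library 8 (0.0208) and without WT ERTU library 15 (0.0484). On CD the adjusted p was 0.0585 without WT CD library 2 and 0.0539 without the 4 libraries with high Myl7.

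The share of Adra1a in the summed RPKM of Adra1a, Adra1b and Adra1d was 29.1 ± 5.32% in WT CD (SD, n = 4) and 28.0 ± 4.43% in WT ERTU (SD, n = 5). It was 18.4 ± 2.66% in Gαq CD (SD, n = 5) and 20.3 ± 5.12% in Gαq ERTU (SD, n = 4). The ratio of Adra1a to Adra1b was 0.478 ± 0.0957 in WT CD and 0.283 ± 0.0447 in Gαq CD, where the highest Gαq CD value, 0.353, exceeded the lowest WT CD value, 0.345. With the longest transcripts the share was 45.1 ± 6.63% in WT CD and 31.2 ± 3.79% in Gαq CD, and the ratio 0.959 ± 0.192 and 0.568 ± 0.0898. Both genes had lower mean levels in Gαq on either length, and the ratio shows that the level of Adra1a differed by more, without a test.

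**Figure D2:**
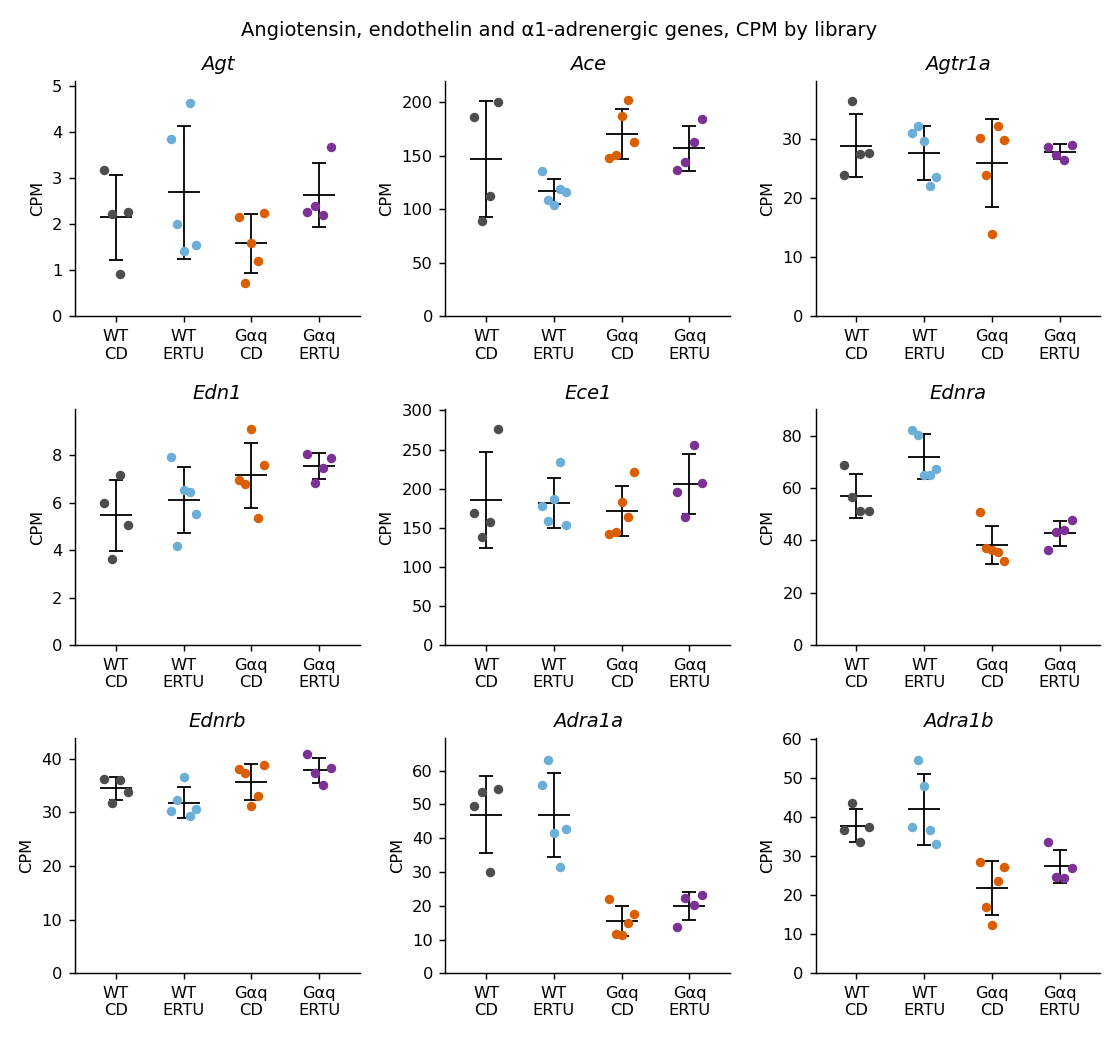
Expression of the 9 genes in TMM-scaled CPM, with 1 point per library; horizontal lines are group means and bars the SD (n = 4 or 5). For Adra1a the 9 Gαq libraries, at most 23.1 CPM, lie below the 9 WT libraries, at least 30.0 CPM, whereas the groups overlap for Agtr1a and Ece1.

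Ednra encodes the endothelin A receptor, present on myocytes, fibroblasts and vascular smooth muscle (ENSMUSG00000031616, chromosome 8, 77663031 to 77724464, minus strand). Its level was 69.0, 56.6, 51.3 and 51.1 CPM in WT CD and 82.5, 80.5, 64.9, 65.1 and 67.5 CPM in WT ERTU. In Gαq CD it was 51.0, 37.1, 36.3, 35.4 and 32.2 CPM, and in Gαq ERTU 36.2, 43.1, 43.9 and 47.8 CPM. Only Gαq CD library 6 came near WT, with 50.96 CPM against 51.10 CPM in WT CD library 5. Ednra fell by 0.66 ± 0.093 on the log2 scale with genotype (adjusted p = 2.63e-05, edgeR), by 0.57 ± 0.131 on CD (adjusted p = 0.00864) and by 0.75 ± 0.133 on ERTU (adjusted p = 0.00111). Without WT CD library 1 the adjusted p on CD was 0.0524. Ednra and Adra1a were the 2 of the 9 genes whose WT and Gαq libraries did not overlap, both lower, against 1.83% of genes tested lower without overlap and 1.73% higher.

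Ednrb encodes the endothelin B receptor, in the heart chiefly a receptor of endothelium (ENSMUSG00000022122, chromosome 14, 103814625 to 103844402, minus strand). Its 18 values lay between 29.4 and 40.8 CPM. The group means were 34.5 ± 2.12 CPM in WT CD, 31.9 ± 2.83 CPM in WT ERTU, 35.7 ± 3.38 CPM in Gαq CD and 37.9 ± 2.34 CPM in Gαq ERTU. The log2 fold change for genotype was 0.15 ± 0.0649 (adjusted p = 0.11, edgeR). On ERTU it was 0.25 ± 0.0889 (adjusted p = 0.0901), and without WT ERTU library 13 the adjusted p there was 0.0453.

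The balance of the endothelin receptors per length therefore differed between the groups, as a description. The ratio of Ednra to Ednrb was 1.29 ± 0.174 in WT CD (SD, n = 4) and 1.78 ± 0.277 in WT ERTU (SD, n = 5). It was 0.84 ± 0.149 in Gαq CD (SD, n = 5) and 0.883 ± 0.133 in Gαq ERTU (SD, n = 4). The lowest WT library was at 1.11 and the highest Gαq library at 1.04. Which receptor stood higher depended on the length used. With summed exons Ednra exceeded Ednrb in every WT library, and with the longest transcripts it also did so in 4 of 5 Gαq CD libraries and 4 of 4 Gαq ERTU libraries, at means of 1.22 ± 0.216 and 1.28 ± 0.193.

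**Figure D3:**
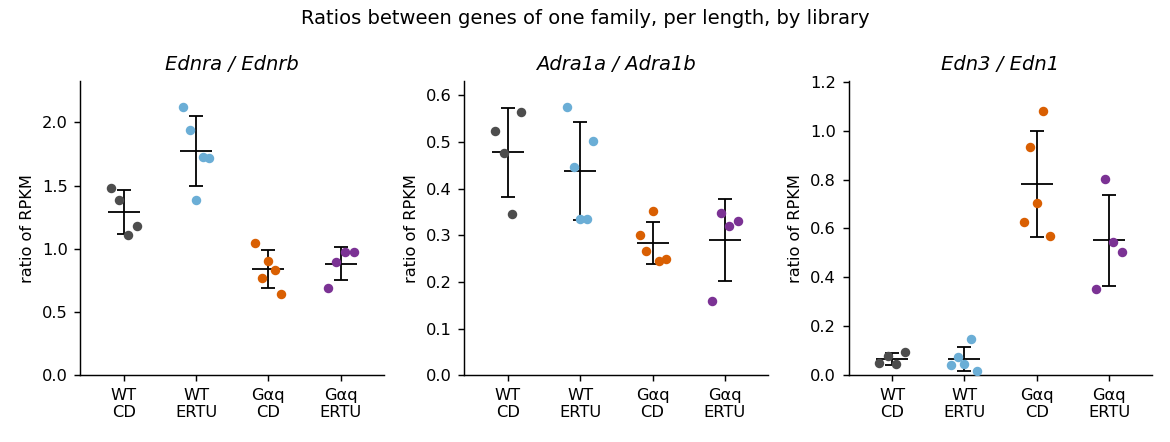
Ratios of RPKM (summed exon lengths) within gene families by library, with group means and SD (n = 4 or 5). Ednra to Ednrb lies above 1.1 in every WT library and at most at 1.04 in Gαq, Adra1a to Adra1b has lower means in Gαq, and Edn3 to Edn1 is at most 0.148 in WT and at least 0.355 in Gαq.

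Agtr1a encodes the main angiotensin II receptor of the mouse heart (ENSMUSG00000049115, chromosome 13, 30336441 to 30382867, plus strand). Its values ran from 22.1 to 36.5 CPM over the WT libraries and from 13.9 to 32.3 CPM over the Gαq libraries, the lowest being Gαq CD library 8. The means were 28.9 ± 5.32 CPM in WT CD, 27.7 ± 4.56 CPM in WT ERTU, 26.0 ± 7.46 CPM in Gαq CD and 27.9 ± 1.227 CPM in Gαq ERTU. The log2 fold change for genotype was -0.07 ± 0.128 (adjusted p = 0.744, edgeR). A difference the size of that of Ednra is several SE away from this estimate, whereas one near the size of the SE could not be told from none.

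Agt, the precursor of the angiotensins made mainly in liver, was the lowest of the 9 genes, with 15 to 88 counts per library (ENSMUSG00000031980, chromosome 8, 124556534 to 124569706, minus strand). It was at 3.17, 2.22, 0.926 and 2.26 CPM in WT CD and at 3.84, 2.01, 1.43, 4.62 and 1.55 CPM in WT ERTU. In Gαq CD it was at 2.15, 0.726, 1.601, 1.19 and 2.25 CPM and in Gαq ERTU at 2.25, 2.38, 2.20 and 3.68 CPM. All groups overlapped, Gαq CD and Gαq ERTU only at their edges, where the highest CD library reached 2.249 CPM and the lowest ERTU library 2.203 CPM. Genotype gave a log2 fold change of -0.22 ± 0.27 (adjusted p = 0.618, edgeR) and ERTU in Gαq one of 0.74 ± 0.388 (adjusted p = 0.656).

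Ace, carried mostly by endothelium, was at 186, 89.3, 112 and 200 CPM in WT CD, the widest spread of the 4 groups for this gene (ENSMUSG00000020681, chromosome 11, 105967945 to 105989964, plus strand). WT ERTU was narrower, from 104 to 135 CPM. Gαq CD ran from 148 to 202 CPM and Gαq ERTU from 137 to 184 CPM. On ERTU the log2 fold change was 0.43 ± 0.181, with an adjusted p of 0.167 when the spread was shared over all groups (edgeR). With only the 2 ERTU groups in the fit the adjusted p was 0.0359. With genotype the log2 fold change was 0.32 ± 0.127 (adjusted p = 0.0847), and 0.41 ± 0.118 without WT CD library 5 (adjusted p = 0.0168). Without WT CD library 1 the adjusted p was 0.0373.

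Edn1, the endothelin-1 precursor, was low, at 64 to 199 counts per library (ENSMUSG00000021367, chromosome 13, 42301476 to 42307990, plus strand). The mean was 5.48 ± 1.49 CPM in WT CD, 6.12 ± 1.38 CPM in WT ERTU, 7.16 ± 1.36 CPM in Gαq CD and 7.56 ± 0.551 CPM in Gαq ERTU. The genotypes overlapped, from 3.65 to 7.92 CPM in WT and from 5.36 to 9.11 CPM in Gαq. The log2 fold change for genotype was 0.35 ± 0.134 (adjusted p = 0.0751, edgeR), and under limma voom with sample quality weights it was 0.40 ± 0.13 (adjusted p = 0.0302). The edgeR adjusted p was 0.0389 without WT CD library 4, 0.0472 without Gαq CD library 9 and 0.0398 without WT ERTU library 11.

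Ece1, the converting enzyme for endothelin, had the highest mean of the 9 genes in CPM too (ENSMUSG00000057530, chromosome 4, 137862237 to 137965229, plus strand). In Gαq CD that mean was 171 ± 32.3 CPM, hardly above the 170 ± 23.5 CPM of Ace (SD, n = 5), with overlapping ranges. Ece1 ran from 139 to 276 CPM in WT CD, where library 5 was highest, and from 142 to 256 CPM over the Gαq libraries. Genotype gave a log2 fold change of 0.03 ± 0.132 (adjusted p = 0.909, edgeR). Ace, Edn1 and Ednra each share a stretch of exon with a gene on the opposite strand, but counting was by strand according to the study's methods.

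**Figure D4:**
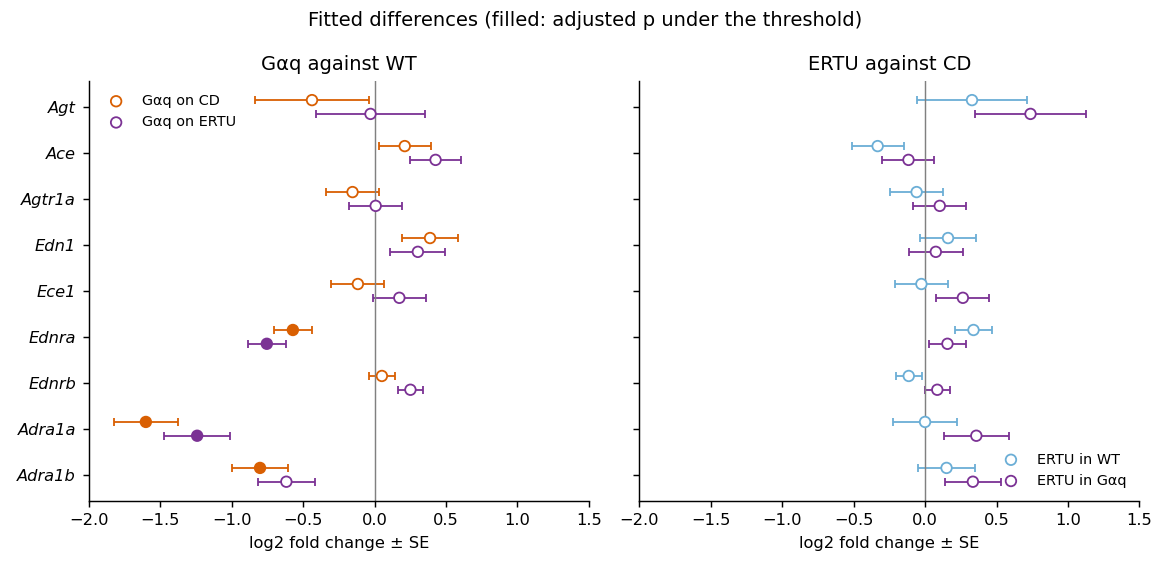
Log2 fold changes of the 9 genes with their SE, for Gαq against WT on each diet (left) and ERTU against CD in each genotype (right); filled points have an adjusted p under 0.05. Adra1a and Ednra are filled on both diets and Adra1b on CD, and no point of the ERTU comparisons is filled.

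By genotype within each diet, 3 of 9 genes were called on CD, namely Adra1a, Adra1b and Ednra, all lower, against a background of 4.1% lower and 4.0% higher. On ERTU 2 of 9 were called, Adra1a and Ednra, against 4.24% lower and 3.93% higher. The comparisons with ERTU asked whether the drug moved these genes. For diet over both genotypes 0 of 9 genes were called, with 0.0% of all genes tested, although 1 of the 9 and 1252 of all genes had an unadjusted p under 0.05. In WT 0 of 9 were called, with 0.0% of all genes and 365 at an unadjusted p under 0.05. In Gαq 0 of 9 were called, with 0.00615% of all genes, which is 1 gene, and 1240 at an unadjusted p under 0.05. For the interaction 0 of 9 were called, with 0.0% of all genes and 313 at an unadjusted p under 0.05. DESeq2 called 2 genes for diet, 0 in WT, 4 in Gαq and 0 for the interaction, and none of the 9 genes.

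The gene with the smallest unadjusted p for diet was Ednra, with a log2 fold change of 0.25 ± 0.0927 (adjusted p = 0.639, edgeR). In WT it was 0.34 ± 0.131 (adjusted p = 1.0) and in Gαq 0.16 ± 0.131 (adjusted p = 0.746), and the difference between these was -0.18 ± 0.186. For Adra1a the log2 fold change with ERTU was 0.00 ± 0.221 in WT and 0.36 ± 0.228 in Gαq. Adra1b had 0.15 ± 0.197 in WT and 0.33 ± 0.199 in Gαq. The differences between genotypes in the response to ERTU were 0.36 ± 0.317 for Adra1a and 0.18 ± 0.279 for Adra1b (adjusted p = 1.0 for both, edgeR). With SE of this size, changes of the order seen in Gαq on ERTU could not be told from none.

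Over the 18 libraries, log2 CPM of Ednra and Adra1a had a Pearson r of 0.889, and 0.638 for deviations from the group means. Adra1a and Adra1b had an r of 0.843, with 0.512 for deviations. Agtr1a went with Adra1b rather within groups, with an r of 0.647 over all libraries and 0.844 for deviations. The points of each correlation share their libraries and the genotype difference, so these are descriptions. Among 13098 genes with a mean log2 CPM of at least 1, the genes most like Adra1a were Slc25a22 (r = 0.968, deviations 0.847) and Dsg2, a desmosomal cadherin (r = 0.965, deviations 0.909). Those most like Adra1b were Slc25a42, a mitochondrial carrier for coenzyme A (r = 0.936, deviations 0.842), and Echdc3 (r = 0.933, deviations 0.796). For Ednra they were Dbt, of branched-chain ketoacid dehydrogenase (r = 0.925, deviations 0.657), and Abhd18 (r = 0.924, deviations 0.601).

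For Agtr1a the most alike were Zfp687 (r = 0.887) and Patz1 (r = 0.878), and for Ednrb Flt3l (r = 0.803) and Spint2 (r = 0.775). Ace went with Adamts2, a procollagen peptidase (r = 0.91), and Clip3 (r = 0.90). Ece1 went with Ptgs1, the cyclooxygenase 1 gene (r = 0.935), and Pxdc1 (r = 0.865). Agt was closest to Mt2, a metallothionein (r = 0.888), and Lrg1 (r = 0.884), and Edn1 to Rpl13a (r = 0.835). For these genes deviations from the group means gave r between 0.693 and 0.939.

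In the rest of the renin-angiotensin pathway Mme and Mas1 fell. Of 14 listed genes 11 were tested, and 0 were called higher and 2 lower with genotype, against 9.72% and 9.92% of all genes tested. The median log2 fold change was -0.08 against 0.00 over all genes tested. These values over all genes tested apply to each list that follows. Mme encodes neprilysin, which degrades natriuretic peptides and angiotensins. It ranged from 30.7 to 48.0 CPM in WT and from 10.8 to 17.8 CPM in Gαq, without overlap, a log2 fold change of -1.30 ± 0.103 (adjusted p = 2.56e-08, edgeR). Mas1, the receptor for angiotensin-(1-7), fell by 1.78 ± 0.411 on the log2 scale (adjusted p = 0.00365). It was near the floor, and a filter at a mean of 1 CPM left it out. On CD its log2 fold change was -2.03 ± 0.559 (adjusted p = 0.0276, edgeR). On ERTU it was -1.44 ± 0.624 and did not pass (adjusted p = 0.176). Ren1 had 2 counts over all libraries, Agtr1b had 0, which allows up to 3 counts, and Agtr2 had 24, so that renin and these receptors were near or below what this depth detects.

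Of 6 other endothelin genes only Edn3 was tested, and it rose. Edn3 encodes endothelin-3, which favours the B receptor. It was at 0.577, 0.57, 0.637 and 0.942 CPM in WT CD and at 0.66, 0.613, 0.603, 1.83 and 0.193 CPM in WT ERTU. In Gαq CD it was at 8.36, 12.2, 12.3, 11.2 and 8.29 CPM, and in Gαq ERTU at 5.48, 10.5, 7.79 and 7.67 CPM. The lowest Gαq library lay above the highest WT library, WT ERTU library 14, which was 1 of the 4 libraries with high Myl7. The log2 fold change was 3.59 ± 0.249 with genotype (adjusted p = 3.36e-09, edgeR), 3.94 ± 0.363 on CD (adjusted p = 1.36e-06) and 3.29 ± 0.332 on ERTU (adjusted p = 5.71e-06). Per length, Edn3 stood at 0.0684 ± 0.0243 of Edn1 in WT CD and at 0.783 ± 0.217 of it in Gαq CD. With the longest transcripts these ratios were 0.0903 ± 0.0321 and 1.03 ± 0.286, with 2 of 5 Gαq CD libraries above 1. Which of Edn3 and Edn1 stood higher in Gαq CD thus depended on the length used. Edn2 had 2 counts and Kel 3 over all libraries.

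Of the genes for catecholamine supply and clearance 8 of 10 were tested, with 0 called higher and 2 lower, against 9.72% and 9.92% of all genes tested. Maob, monoamine oxidase B, ranged from 61.5 to 84.7 CPM in WT and from 13.4 to 33.9 CPM in Gαq (log2 fold change -1.58 ± 0.139, adjusted p = 8.67e-08, edgeR). Slc22a3, a low-affinity transporter that takes up catecholamines outside neurons, ranged from 8.33 to 16.4 CPM in WT and from 2.92 to 8.04 CPM in Gαq (log2 fold change -1.35 ± 0.166, adjusted p = 5.96e-06). Th, which makes the precursor of noradrenaline in nerves, had 1 count over all libraries. Of 4 other α-adrenergic receptor genes 3 were tested and 0 called.

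**Figure D5:**
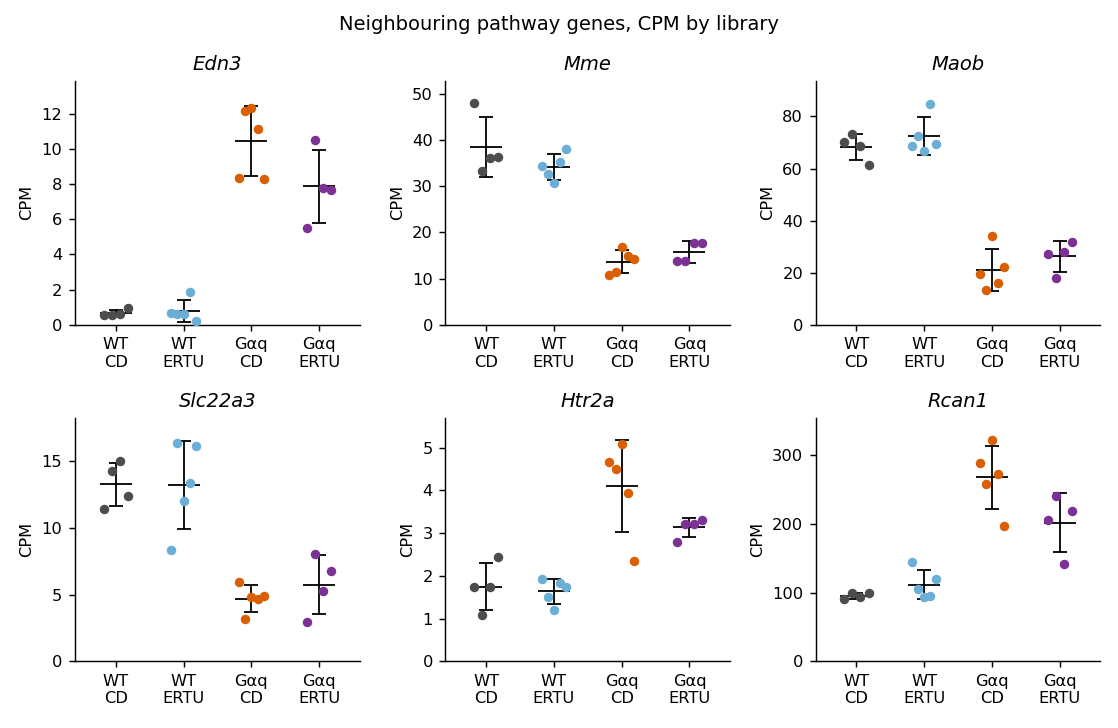
Expression in CPM of 6 genes next to the 9 in their pathways, 1 point per library, with group means and SD (n = 4 or 5). Edn3 is at most 1.83 CPM in WT and at least 5.48 CPM in Gαq, Mme, Maob and Slc22a3 are lower in every Gαq library than in any WT library, and Htr2a and Rcan1 have higher means in Gαq.

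Other receptors that couple to Gq did not share one direction. Of 23 listed, 17 were tested, 4 were higher and 1 lower with genotype, and the median log2 fold change was 0.32. Over all genes tested 9.72% were called higher and 9.92% lower. Htr2a, the serotonin 2A receptor, rose by 1.08 ± 0.167 (adjusted p = 7.26e-05, edgeR), from a range of 1.08 to 2.45 CPM in WT to 2.34 to 5.08 CPM in Gαq. The lysophosphatidate receptor Lpar1 rose by 0.50 ± 0.106 and the thrombin receptor F2r by 0.40 ± 0.0858. The fourth called higher was the UDP receptor P2ry6. The ADP receptor P2ry1 fell by 0.52 ± 0.131. Of 7 receptor kinases and arrestins, all tested, 2 were higher, Grk4 by 0.54 ± 0.178 (adjusted p = 0.0364) and Arrb2 by 0.29 ± 0.0799 (adjusted p = 0.0129). Without the 4 libraries with high Myl7 neither passed, with adjusted p = 0.116 and 0.0963. Grk4 also missed the threshold, with adjusted p from 0.0522 to 0.0824, without any 1 of WT CD libraries 2 and 5, Gαq CD libraries 7 and 9, WT ERTU libraries 11 and 14, and Gαq ERTU libraries 16 and 17.

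Among 18 genes known to be induced by angiotensin II or endothelin-1, 17 were tested, and 9 were higher and 0 lower with genotype. Over all genes tested the shares were 9.72% higher and 9.92% lower. The median log2 fold change of the list was 0.66. The largest differences were those of Nppa and Nppb, which encode natriuretic peptides, and Myh7, the slow myosin heavy chain (log2 fold changes 5.03 ± 0.255, 2.09 ± 0.178 and 1.72 ± 0.186). Rcan1, a target and regulator of calcineurin, rose by 1.17 ± 0.131 (adjusted p = 1.83e-06, edgeR). On CD it ranged from 90.8 to 99.4 CPM in WT and from 198 to 323 CPM in Gαq (log2 fold change 1.49 ± 0.161). On ERTU the groups overlapped, at 93.4 to 145 CPM in WT and 142 to 241.5 CPM in Gαq (log2 fold change 0.85 ± 0.154). The difference between these log2 fold changes, -0.63 ± 0.22, was not called. Nor was ERTU in Gαq, at -0.41 ± 0.155 (adjusted p = 0.653, edgeR). For ERTU in either genotype 0 genes of any of these lists were called.

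Some markers of cell types that carry these receptors also differed with genotype, where 9.72% of all genes tested were called higher and 9.92% lower. Of 8 cardiomyocyte markers 3 were lower (Myh6, Tnni3, Ryr2) and 1 higher (Mybpc3), and their summed level ran from 69149 to 100774 CPM in WT and from 68459 to 92759 CPM in Gαq. Of 8 mural cell markers 2 were lower (Rgs5, Abcc9) and 1 higher (Cspg4), with sums of 1795 to 2154 CPM in WT and 1346 to 1985 CPM in Gαq. Of 8 endothelial markers 2 were lower (Cdh5, Tie1) and 0 higher, with sums of 1283 to 1703 CPM and 1154 to 1377 CPM. Of 8 fibroblast markers 6 were higher and 0 lower, with sums of 1542 to 3149 CPM and 2897 to 4390 CPM. Of 7 nerve and Schwann cell markers 6 were tested and 0 called. No marker list had a gene at 0 in all libraries. The part of these cell types in the differences of Adra1a, Adra1b, Ednra and Edn3 was not tested. Without the 4 libraries with high Myl7 the log2 fold change of Ednra for genotype was -0.73 ± 0.11 (adjusted p = 0.000192, edgeR).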

How the data were processed

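Libraries of poly(A) RNA from left ventricle were sequenced as read pairs. According to the study's methods and the submitters' processing notes, the authors aligned reads to mm10 with STAR 2.6.0c and counted uniquely aligned proper pairs on the strand of the gene with featureCounts of Subread 1.6.2. The deposited table holds these raw counts for 55450 Ensembl genes. A second table holds log2-like values that the authors made by the variance-stabilizing transformation of DESeq2, used only as an alternative. Of the gene IDs, 55190 (99.5%) matched GENCODE M21, which gave symbols, positions and lengths.

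The counts were fitted with edgeR 4.0.16 under R 4.3.3. filterByExpr on the 4 groups kept 16270 genes, and scaling was by TMM. Genotype and diet came from an additive model. The other comparisons, including the interaction, came from a model of 4 group means. Quasi-likelihood F tests were followed by Benjamini-Hochberg adjustment across the 16270 genes, at a threshold of 0.05. SE is the absolute log2 fold change over the root of F. log2 CPM used a prior count of 2. Groups of 4 and 5 libraries were also compared by 2-sided exact permutation tests over 126 splits, whose smallest p is 0.0159. limma 3.58.1 and DESeq2 1.42.0 gave alternatives. The steps were tested on simulated data.

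The genes and lists were chosen with earlier results of these data known. All 9 genes are named, as are Gnaq, up to 4 genes per further list with the largest called change by genotype, and the 2 genes most like each of the 9, of which 1 for Edn1 is not reported here. P2ry6, list genes at low counts and called markers are named to spell out counts.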

Additional observations from a re-analysis of the deposited data

Results flagged for a closer look

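In 60 sets of values (15 genes in 4 groups), 3 libraries stood apart from the rest of their group by a Dixon test at the 95% level, and chance alone gives about 3. Agt in Gαq ERTU library 20 was at 3.68 CPM, against 2.20 to 2.38 CPM in the other libraries of the group. Ednra in Gαq CD library 6 was at 51.0 CPM, against 32.2 to 37.1 CPM. Edn3 in WT ERTU library 14 was at 1.83 CPM, against 0.193 to 0.66 CPM.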

How the results depend on the processing

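No called result reversed under any alternative run. The counts of genes called for genotype kept within 1.5 times under all of them. With voom and sample quality weights 5 of the 9 genes were called with genotype (Ace and Edn1 added) and 4 on ERTU (Ace and Adra1b added), where 2755 genes were called in all. With only the 2 groups in the fit, 4 of the 9 were called on ERTU. DESeq2 called 2 genes for diet and 4 for ERTU in Gαq. The 1 gene called for ERTU in Gαq was lost, leaving 0, with no filter on low counts, with only the 2 groups, and without the 4 libraries with high Myl7, an alternative chosen after seeing the data. Leaving out each library in turn gave 788 to 1414 genes called for Gαq on CD, the lowest without WT CD library 1, with 851 without WT CD library 2, and 0 to 0 for ERTU in Gαq. The cause was not tested. Among the 9 genes and the 15 named from further lists, such fits took a call away 10 times and added one 8 times, and other settings took 4 away and added 8. Exact permutation tests without adjustment added 4. These were Ace on ERTU (exact p = 0.0159), and Ednrb and Adra1b on ERTU and Agt for ERTU in Gαq (exact p = 0.0317 for each). The smallest p, 0.0159, was also that of Adra1a and Ednra on each diet and of Adra1b on CD. Group medians and median-of-ratios scaling moved no level of the 9 genes by more than 1 SD. No paired analysis was possible because the numbers in the count table run across the series and are not those of the labels. Ranks and ratios per length were also taken with the longest transcripts, for the ratios a choice made after seeing the data. Agt had the fewest counts and the largest SE of the 9 genes for genotype.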
